A study of Mus musculus with 34 samples.

Results

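In mouse bone marrow-derived dendritic cells (BMDCs) stimulated with lipopolysaccharide (LPS), 923 of 5465 p65 ChIP-seq peaks (16.9%) lay away from promoters, were absent before LPS and carried no H3K27ac peak before or after LPS. p65, also called RelA, is the NF-kB subunit with the main activating domain, and H3K27ac is the histone acetylation that marks active enhancers and promoters. The 923 sites were chosen by measured values: a p65 peak in stimulated wild-type cells (WTLPS), no overlapping p65 peak in unstimulated wild-type cells (WT), no overlap with the window of 2.5 kb to either side of an annotated start site, and neither a WT nor a WTLPS H3K27ac peak sharing even 1 bp. Their presence in WTLPS, their absence in WT and their lack of H3K27ac in wild-type cells are therefore given by the choice. The other lists took no part in it.

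Bone marrow from C57BL/6 mice, given as 8 weeks old, was cultured for 6 days in GM-CSF. The WT and WTLPS samples came from CreER mice, and the KO and KOLPS samples from CreER;CTCF fl/fl mice, in which the CTCF gene can be cut out by a tamoxifen-activated Cre recombinase. CreER sits at the Rosa26 locus and is thus active in all cell types of the culture, and CD11c+ cells were selected from it. 4-hydroxytamoxifen was added once at the start for the deletion, and the sources used here leave unclear whether the CreER cultures received it too, so an effect of the activated Cre and loss of CTCF cannot be told apart. LPS was given at 100 ng/ml for 3 h in WTLPS and KOLPS, and cells for STAT5 were restimulated with GM-CSF for 15 min. The 30 peak lists of 8 antibodies hold 1 list for each of the 4 conditions, except STAT5, with a list for WT and KO. The study's reporting summary says that replicates were merged, while its methods describe peaks called for each replicate. With 1 list for each antibody and condition, no difference between conditions could be tested against replicate error. Shares of sites are given with 95% Wilson intervals, and differences between groups of sites with 95% Newcombe intervals. Differences between conditions at the same sites have 95% normal intervals from the numbers of sites that gained or lost a peak. All of these cover counting error over sites only, and sites are not replicates of a condition.

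LPS is sensed by TLR4, whose adaptors activate the kinase that releases NF-kB from its cytoplasmic inhibitors. In the nucleus NF-kB mostly binds enhancers already opened by the lineage factors PU.1 and C/EBP and marked by H3K4me1, and part of its binding is not followed by acetylation. H3K27me3 marks chromatin repressed by Polycomb, CTCF is the DNA-binding insulator protein that anchors chromatin loops, and SMC1 is a core subunit of cohesin, the ring complex that extrudes those loops.

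The lists differed in size and floor. For p65, wild-type cells gave 781 peaks before and 5465 after LPS, and CTCF-deficient cells 504 and 1752, with typical backgrounds at a summit of 0.713, 0.855, 0.705 and 0.817 fragments. CTCF peaks, which check the deletion, numbered 60537 in WT and 54020 in WTLPS against 20151 in KO and 11576 in KOLPS, so the knockout lists kept a remainder. H3K4me3, the mark of active promoters, was found at 14 of 14 dendritic and myeloid marker promoters in each condition and at 7 of 18 promoters marking other cell types (Col1a1, Kit, Klf1, Lck, Pax5, Pdgfra and S100a8). H3K27me3 in WT was at 11 of those 18, of which Col1a1, Kit, Pax5, Pdgfra and S100a8 had both marks, and at 2 of the 14 (Irf4 and Irf8). In bulk chromatin, fewer cells with a mark and less of it per cell cannot be told apart.

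Windows of 101 bp centred on the p65 summit are shown for 8 sites, on the plus strand of mm10 and each named by its nearest protein-coding start site. The 2 strongest sites show that p65 peaks without the NF-kB consensus lead the set, and the others are the 6 strongest that hold a match. Zeb2 was among the 10 strongest sites, and the other 5 with a match were added after their values were seen. Capitals mark exact matches to the 10-base NF-kB consensus on either strand.
Stpg2 site: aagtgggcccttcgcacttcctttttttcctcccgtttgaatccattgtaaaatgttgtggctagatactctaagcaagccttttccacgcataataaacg
Ndufb6 site: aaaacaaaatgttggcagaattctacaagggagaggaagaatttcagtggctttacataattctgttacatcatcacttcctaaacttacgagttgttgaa
Zeb2 site: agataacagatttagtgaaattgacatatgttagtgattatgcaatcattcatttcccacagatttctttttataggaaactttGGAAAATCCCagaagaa
Npsr1 site: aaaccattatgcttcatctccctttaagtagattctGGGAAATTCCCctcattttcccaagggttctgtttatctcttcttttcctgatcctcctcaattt
Cnksr2 site: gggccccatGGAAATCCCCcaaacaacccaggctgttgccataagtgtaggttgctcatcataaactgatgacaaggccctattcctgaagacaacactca
Anks1b site: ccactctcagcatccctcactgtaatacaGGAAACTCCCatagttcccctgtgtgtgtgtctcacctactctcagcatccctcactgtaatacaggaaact
Cnksr3 site: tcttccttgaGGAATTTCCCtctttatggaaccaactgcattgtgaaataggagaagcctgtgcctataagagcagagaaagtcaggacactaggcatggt
Samsn1 site: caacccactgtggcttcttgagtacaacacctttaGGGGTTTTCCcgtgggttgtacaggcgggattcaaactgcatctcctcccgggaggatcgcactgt
The windows lie at chr3:139886146-139886246, chr4:40364391-40364491, chr2:45580974-45581074, chr9:23694804-23694904, chrX:158193145-158193245, chr10:90305057-90305157, chr10:7185838-7185938 and chr16:75872366-75872466 in that order. The Anks1b, Cnksr3 and Samsn1 windows are in introns of those genes, and the other 5 are outside genes. In the Npsr1 window a match on the plus strand and one on the minus strand overlap. The 6 sites with a match had WTLPS p65 fold enrichments of 16.7 (Zeb2), 12.9 (Npsr1), 12.4 (Cnksr2), 12.3 (Anks1b), 11.9 (Cnksr3) and 11.9 (Samsn1), and none of them had a p65 peak in KOLPS. Over all 923 sites the KOLPS p65 share was alike with and without a match. It was 7.5% (6 of 80, 3.48 to 15.4) with one and 8.42% (71 of 843, 6.73 to 10.5) without.

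The sites without H3K27ac were mostly weak p65 peaks. Fold enrichment, the fragments at the summit against the local background with 1 added to each, ranged from 3.66 to 25.9 with a median of 5.93. The median was 7.55 at the 686 induced distal sites that gained H3K27ac only with LPS, 7.01 at the 2246 that had H3K27ac before LPS and 7.01 over all 5465 peaks. Fragment numbers could be recovered from fold and p for 100.0% of WTLPS p65 peaks within 0.002 of the listed −log10 p. A median of 10 fragments (range 6 to 47) lay at the summits, against 13 and 12 in the acetylated groups. Peak width had a median of 259 bp against 322 and 340 bp.

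**Figure D1:**
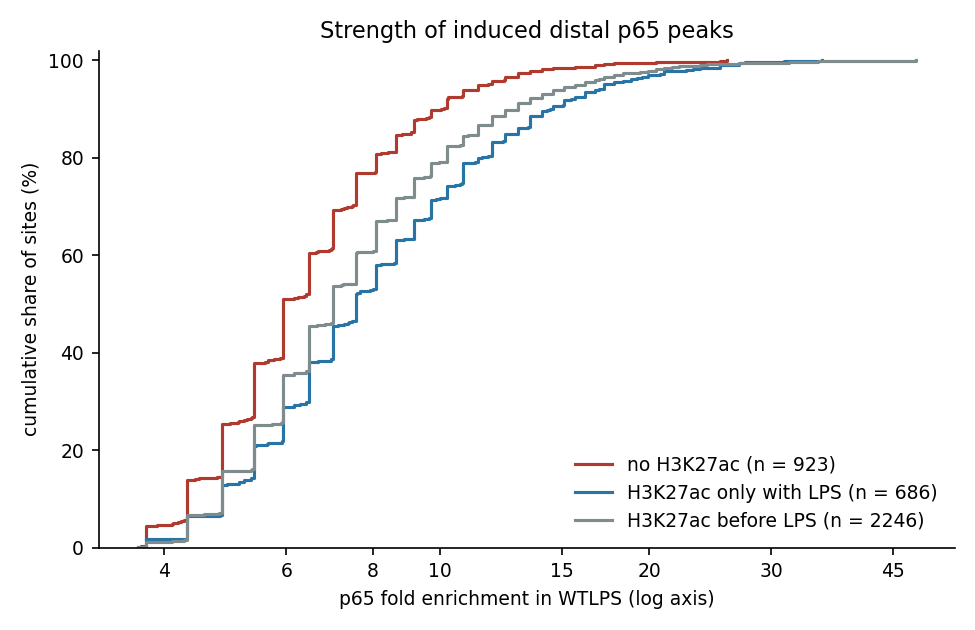
Cumulative share of induced distal p65 sites (vertical axis, %) by p65 fold enrichment in WTLPS (log axis), for sites without H3K27ac, with H3K27ac only after LPS and with H3K27ac before LPS. The curve of the 923 sites without H3K27ac lies to the left of the other curves over most of the range, with a median of 5.93 against 7.55 and 7.01.

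The 10 strongest sites, named by their nearest protein-coding start site, had p65 folds of 16.7 to 25.9, and each had an SMC1 peak in WTLPS. Of these 10, 7 had H3K4me1 in WTLPS, 4 had p65 in KOLPS, 4 lay within 1 kb of an H3K27ac peak and 1 held an NF-kB consensus. 6 were outside genes and 4 in introns. The strongest, at chr3:139885898-139886423, had 47 fragments in WTLPS and lay 680302 bp from the start of Stpg2 and 679639 bp from the nearest H3K27ac peak. Even so it had H3K4me1 and SMC1 peaks in all 4 conditions, with SMC1 folds of 6.56 and 14.5 before and after LPS in wild-type cells and of 4.42 and 5.64 in CTCF-deficient cells. Its p65 fold was 25.9 in WTLPS and 7.71 in KOLPS, where 13 fragments lay at the summit.

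The site at chr4:40363990-40364819, 85019 bp from the start of Ndufb6, which encodes a subunit of mitochondrial complex I, had a p65 fold of 25.3 in WTLPS and 11 in KOLPS. Its SMC1 fold was 7.34 before and 17.3 after LPS in wild-type cells and was 8.20 and 8.74 in CTCF-deficient cells, and its STAT5 fold was 28.3 in WT and 26.3 in KO. It was acetylated in KOLPS, with an H3K27ac fold of 6.11, although not in the wild-type lists. The site at chr1:150197507-150198145 lay 97814 bp from the start of Ptgs2, the inducible cyclooxygenase of prostaglandin synthesis, with a p65 fold of 20.5 and an SMC1 fold of 9.46 in WTLPS. It had H3K4me1 in every condition but WTLPS, no SMC1 peak in the other conditions, no p65 peak in KOLPS, and an H3K27ac peak 3 bp away.

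The other 7 of the 10 were less uniform in their marks. The site near Thg1l (chr11:45966946-45967358, p65 fold 21.6) was outside genes and had H3K27me3 in WT and WTLPS, and STAT5 in WT and KO. Those in introns of Ccdc50 (chr16:27419290-27419830, fold 19.9) and Epha4 (chr1:77389130-77389606, fold 17.8), a receptor for ephrins, had no KOLPS p65 peak, and SMC1 in WTLPS was the only other peak at the Epha4 site. The site near Gm6685 (chr11:28343477-28343918, fold 17.2) and that in an intron of 4921529L05Rik nearest to Cpvl (chr6:53996609-53996950, fold 17.2) had a KOLPS p65 fold of 5.50 each. The site in an intron of Lnx1 (chr5:74618414-74618868, fold 17.2) had CTCF in all 4 conditions. The site 463628 bp from Zeb2, a transcription factor used in dendritic and other myeloid cells (chr2:45580685-45581237, fold 16.7), lay 41 bp from an H3K27ac peak.

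By position, 465 sites (50.4%, 95% interval 47.2 to 53.6) were outside genes, 418 (45.3%) were in introns and 40 (4.33%) touched an exon. The share outside genes was 45.9% (42.2 to 49.7) at the sites acetylated only with LPS and 43.9% (41.8 to 45.9) at those acetylated before. The median distance from the summit to a protein-coding start site was 50.8 kb, against 46.8 and 30.6 kb, and 286 sites (31.0%) were over 100 kb away, against 26.2% and 16.7%. Sites were spread over the genome. Chromosome 13 held 8.45% of them and 5.67% of all WTLPS p65 peaks, and chromosome X held 3.03% and 1.67%. Few were clustered, with a median of 709 kb to the nearest other such site and of 136 kb to the nearest WTLPS p65 peak of another kind.

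Lack of an H3K27ac peak at the p65 peak itself did not mean lack of H3K27ac nearby. An H3K27ac peak of WT or WTLPS lay within 500 bp of 388 sites (42.0%) and within 1 kb of 443 (48%, 44.8 to 51.2), and 206 (22.3%) had one within 1 kb on both sides. At the other end, 325 sites (35.2%) had none within 10 kb and 195 (21.1%) none within 50 kb. At some sites the choice turned on single bases. At chr11:18814156-18814364 (p65 fold 5.93), chr17:50993655-50993863 (7.01) and chr7:19826991-19827246 (8.20) an H3K27ac peak began or ended at the peak edge, 0 bp away. At chr16:24725833-24726119 (7.01) and chr3:15434912-15435199 (6.47), just outside the rule, the overlap was 1 bp, and at chr13:37218550-37218919 (17.2) it was 2 bp. In all 188 of the 923 had H3K27ac under 100 bp away, and 343 of the 2932 acetylated induced distal sites overlapped it by under 100 bp. The start site limit left out 110 sites. The nearest to it on the inside lay 2518 bp from a start site (chr4:106563557-106563818, fold 7.01) and the nearest on the outside 2466 bp (chr17:36966899-36967106, fold 4.85).

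**Figure D2:**
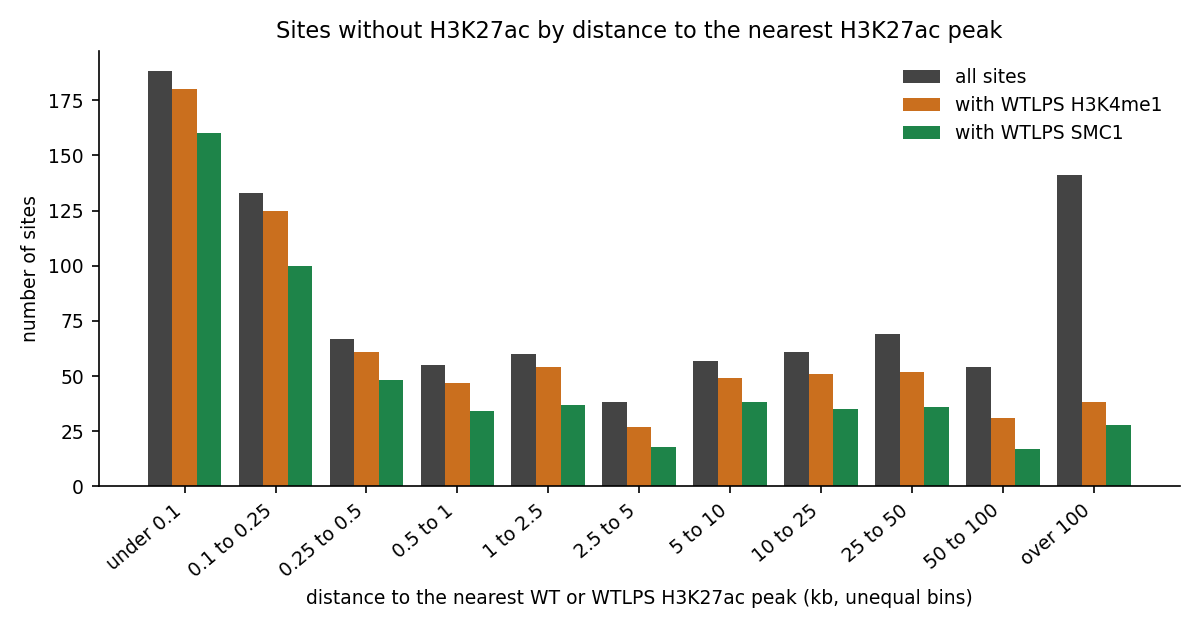
Number of sites without H3K27ac (vertical axis) in unequal bins of distance to the nearest WT or WTLPS H3K27ac peak (kb), for all sites and for those with H3K4me1 or SMC1 in WTLPS. The bin under 0.1 kb held 188 sites, of which 160 had SMC1, and the bin over 100 kb held 141, of which 28 had SMC1.

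The other marks varied with that distance. Among the 443 sites within 1 kb of H3K27ac, 93.2% had H3K4me1 in WTLPS, 77.2% SMC1 in WTLPS and 11.3% p65 in KOLPS. Among the 280 sites over 20 kb away these shares were 48.2%, 32.1% and 3.93%, and p65 was weaker, with a median fold of 5.39 against 6.47. H3K27me3 in WT went the other way, at 3.61% (2.24 to 5.79) of the near sites and 10% (7.01 to 14.1) of the far ones.

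H3K4me1, the mark of primed and active enhancers, was already present at most sites before LPS. In wild-type cells it was found at 682 of 923 sites before LPS (73.9%, 71.0 to 76.6) and 715 after (77.5%, 74.7 to 80). In CTCF-deficient cells it was found at 662 before (71.7%, 68.7 to 74.5) and 494 after (53.5%, 50.3 to 56.7). In the same order the shares over all 5465 WTLPS p65 peaks were 89.1%, 90.6%, 86.6% and 71.4%. The sites acetylated only with LPS had H3K4me1 more often in WTLPS, by 19.2 percentage points (16.1 to 22.2), and those acetylated before by 20.6 points (17.9 to 23.4). The gap held in each of 4 bands of p65 fold and was largest among the weakest peaks, where 55.9% of the sites without H3K27ac and 96.7% of those acetylated with LPS had H3K4me1. From WT to WTLPS 64 sites gained an H3K4me1 peak and 31 lost one, and from KO to KOLPS 18 gained and 186 lost one. The KOLPS H3K4me1 list covered 149 Mb, against 263 Mb in WTLPS, 259 Mb in WT and 232 Mb in KO, and the study states fewer reads for it than for the other H3K4me1 samples. Their part in the result was not tested.

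H3K27me3 was rare but more frequent than at other p65 sites. Wild-type cells had it at 63 sites before LPS (6.83%, 5.37 to 8.64) and 19 after (2.06%, 1.32 to 3.19). CTCF-deficient cells had it at 35 before (3.79%, 2.74 to 5.23) and 6 after (0.65%, 0.298 to 1.41). Over all WTLPS p65 peaks the shares were 2.2%, 0.604%, 1.19% and 0.128% in this order. In WT the share at sites acetylated only with LPS minus that at sites without H3K27ac was -3.76 points (-5.86 to -1.62), and for sites acetylated before LPS it was -6.47 points (-8.29 to -4.97). By p65 fold, the first of these was -3.13 points (-6.63 to 2.15) under 5 and -4.95 (-8.35 to -1.12) for 5 to 7.5. It was -5.41 (-10.4 to -0.752) for 7.5 to 10 and -1.81 (-9.06 to 3.43) for 10 or more. Both marks are on the same residue, and the sites were chosen by the absence of H3K27ac. Of the 63 sites, 48 had no H3K27me3 peak in WTLPS, and 4 sites gained one. These lists had unequal floors and covered 117 and 56.7 Mb in wild-type cells without and with LPS, and 113 and 18.7 Mb in CTCF-deficient cells. The part of this in the result was not tested. With every list held to the highest floor, a −log10 p of 3.47, the shares were 4.33%, 1.84%, 2.06% and 0.65%. H3K4me1 without H3K27me3 was the most frequent state in every condition, at 68.9% and 76.4% of sites before and after LPS in wild-type cells and 69.0% and 53.4% in CTCF-deficient cells. Both marks together were at 46 sites in WT and 10 in WTLPS, and neither was at 224 and 199.

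Among the 15 sites with H3K27me3 in both WT and WTLPS, those with the strongest p65 were the Thg1l site, a site near Thbs1 and a site near Nucb2. The Thbs1 site (chr2:117968631-117969111, p65 fold 13.5), in an intron of Gm13986 and 142943 bp from the gene of the matrix protein thrombospondin 1, had H3K27me3 folds of 3.73 in WT, 4.2 in WTLPS and 3.50 in KO. Its SMC1 fold was 5.47 in WT and 10.9 in WTLPS. The Nucb2 site (chr7:116487725-116487962, p65 fold 9.16) was outside genes and had H3K27me3 folds of 3.81, 3.70 and 3.24 in WT, WTLPS and KO.

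Cohesin was called at more of the sites after LPS in wild-type cells and at slightly fewer in CTCF-deficient cells. The sites were chosen by p65 gained with LPS in wild-type cells, so these 2 differences are not a like comparison. SMC1 peaks were at 366 sites before LPS (39.7%, 36.5 to 42.8) and 551 after (59.7%, 56.5 to 62.8) in wild-type cells. In CTCF-deficient cells they were at 314 sites before (34.0%, 31.0 to 37.1) and 296 after (32.1%, 29.1 to 35.1). Over all WTLPS p65 peaks the shares were, in this order, 72.4%, 88.0%, 66.8% and 65.2%. From WT to WTLPS 196 sites gained an SMC1 peak and 11 lost one, although the WTLPS list, with 57354 peaks, was shorter than that of WT, with 63638. From KO to KOLPS 51 gained and 69 lost one, a difference of -1.95 points (-4.27 to 0.373), with lists of 29965 and 17241 peaks. The sites without H3K27ac had SMC1 in WTLPS less often than those acetylated with LPS, by 27.5 points (23.3 to 31.4), and than those acetylated before, by 36.3 points (33.0 to 39.5). Against the sites acetylated with LPS the gap was 42.4 points (31.2 to 51.3) for p65 folds under 5 and 17 points (8.06 to 27.1) for folds of 10 or more. Both SMC1 lists of the knockout were shorter, and the part of this in the result was not tested. Where SMC1 was present in WTLPS, its summit lay a median of 56 bp from the p65 summit, and within 100 bp at 406 of 551 sites (73.7%, 69.9 to 77.2), against 73.4% and 65.9% in the acetylated groups.

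CTCF was rare at the sites, as at acetylated ones. In wild-type cells it was called at 60 sites before LPS (6.5%, 5.08 to 8.28) and 46 after (4.98%, 3.76 to 6.58), and in CTCF-deficient cells at 16 (1.73%, 1.07 to 2.80) and 12 (1.30%, 0.745 to 2.26). All WTLPS p65 peaks had shares of 7.76%, 6.33%, 1.81% and 1.04% in this order. In WTLPS the share at sites acetylated with LPS minus that at sites without H3K27ac was -0.319 points (-2.41 to 1.90), and for sites acetylated before LPS it was 1.03 points (-0.814 to 2.65). CTCF summits lay a median of 215 bp from the p65 summit in WTLPS, and 12 of 46 lay within 100 bp. SMC1 in WTLPS was mostly without CTCF, at 507 sites, while 44 sites had both, 2 had CTCF alone and 370 had neither. An SMC1 peak in KOLPS was found at 263 of the 507 sites and at 23 of the 44.

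**Figure D3:**
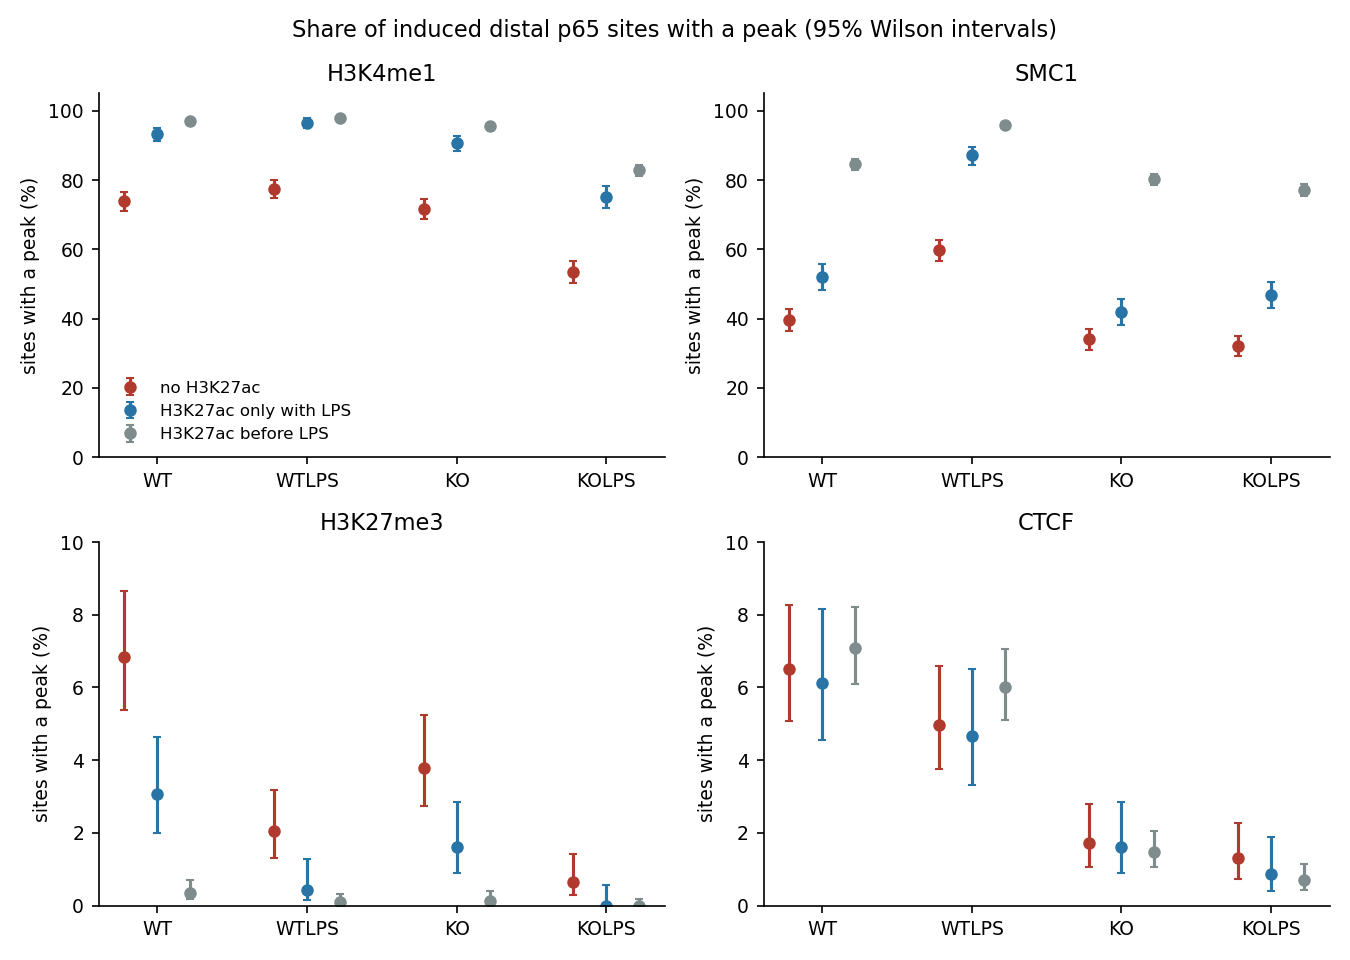
Share of induced distal p65 sites with a peak of H3K4me1, SMC1, H3K27me3 or CTCF (vertical axes, %) in WT, WTLPS, KO and KOLPS, for sites without H3K27ac (n = 923), with H3K27ac only after LPS (n = 686) and with H3K27ac before LPS (n = 2246). Bars are 95% Wilson intervals, and the vertical axis ends at 10% for H3K27me3 and CTCF. The sites without H3K27ac were lowest for H3K4me1 and SMC1 in each condition and highest for H3K27me3.

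The strongest sites with CTCF in WTLPS were the Lnx1 site, a site near Crybg1 and a site in an intron of Bend3. At the Lnx1 site the CTCF fold was 15.0 and 10.8 in wild-type cells without and with LPS and 5.32 and 4.45 in CTCF-deficient cells, so a CTCF peak was still called in the knockout lists. At the site in an intron of Speer5-ps1 nearest to Crybg1 (chr10:44179069-44179452, p65 fold 14.0 in WTLPS and 6.60 in KOLPS) the CTCF fold was 22 in WT and 17.2 in WTLPS with no peak in KO or KOLPS, and no SMC1 peak was called there. The Bend3 site (chr10:43504372-43504649, p65 fold 12.9), whose nearest coding start site is that of Gm9803, had CTCF folds of 4.64 and 5.96 and kept SMC1 in KO and KOLPS at folds of 8.99 and 7.10.

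Few of the sites had p65 in CTCF-deficient cells. A KOLPS p65 peak overlapped 77 of 923 (8.34%, 6.73 to 10.3), against 22.7% of all WTLPS p65 peaks, and a KO p65 peak overlapped 7 (0.758%), against 7.61%. All WTLPS p65 peaks include the 726 bound before LPS, which the choice removed. At sites acetylated only with LPS the KO p65 share was 0.875% and at those acetylated before 2.32%. The KOLPS share was 14.3% at sites acetylated only with LPS, higher by 5.94 points (2.83 to 9.19), or by 2.26 points when 50% of a peak had to be covered to count as overlapping, and 18.8% at sites acetylated before LPS, higher by 10.4 points (7.94 to 12.8). The share was higher where p65 in WTLPS was stronger. Among the sites without H3K27ac the KOLPS share was 2.54% (6 of 236) for folds under 5, 6.30% (26 of 413) for 5 to 7.5, 9.39% (17 of 181) for 7.5 to 10 and 30.1% (28 of 93) for 10 or more. In the same bands the sites acetylated with LPS differed by 1.90 points (-2.06 to 8.48), 1.53 points (-2.42 to 6.17), -1.25 points (-7.32 to 4.87) and 1.85 points (-9.86 to 12.7), intervals that all hold 0. The sites acetylated before LPS were higher in the upper 3 bands, by 3.64 points (0.323 to 6.56), 9.42 points (3.47 to 14.3) and 15.8 points (4.94 to 25.4).

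**Figure D4:**
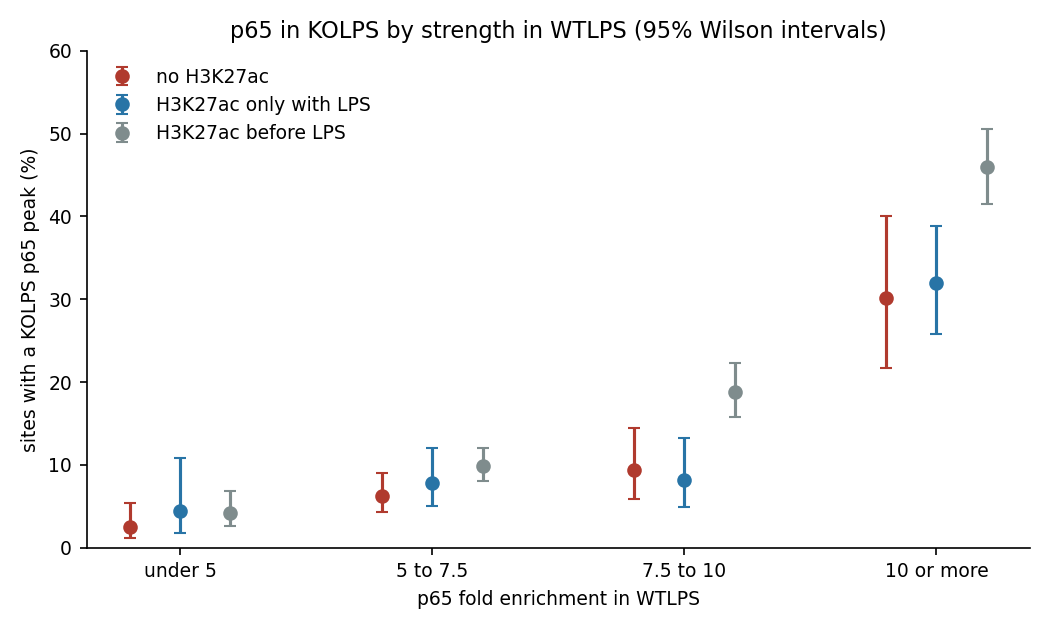
Share of induced distal p65 sites with a p65 peak in KOLPS (vertical axis, %) in 4 bands of p65 fold enrichment in WTLPS, for 3 groups of sites, with 95% Wilson intervals. For sites without H3K27ac the share goes from 2.54% under a fold of 5 to 30.1% at 10 or more, close to the sites acetylated only with LPS in each band.

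The KOLPS p65 list ended at a −log10 p of 5.39, and 49 of the 923 sites (5.31%) were below it in WTLPS. The study states more reads for KOLPS p65 than for WTLPS p65, while the typical background at a summit was lower, at 0.817 against 0.855 fragments. At the 77 sites the WTLPS fold had a median of 8.08 and the KOLPS fold 7.71, with 14 and 13 fragments, and the KOLPS fold was the lower one at 41 of 77. These are the sites that reached the KOLPS list, with a lowest KOLPS fold of 4.95. Sites with less p65 in KOLPS are left out, so the similar folds do not measure how much p65 was kept over the 923. The summits of the conditions lay a median of 40 bp apart. KOLPS p65 was called at 22% of the sites with SMC1 in KOLPS (65 of 296) and at 1.91% of those without (12 of 627), groups with median WTLPS folds of 6.47 and 5.93. It was called at 15.0% (11.7 to 19.1) of the sites with SMC1 in WT, before LPS, and at 3.95% (2.62 to 5.91) of those without, groups with the same median WTLPS fold of 5.93. Equal medians do not match the groups in fold. SMC1 in WT was at 31.4%, 44.6%, 37.6% and 43.0% of sites in the 4 bands of fold, from the lowest up. Beyond the sites near Stpg2, Ndufb6, Gm6685 and Cpvl, the next strongest of the 77 was a site near C1qtnf7 (chr5:43437281-43437740), with folds of 15.6 in WTLPS and 7.15 in KOLPS and no other peak but SMC1 in WTLPS.

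Some of the sites were acetylated in CTCF-deficient cells. An H3K27ac peak was found at 162 sites in KO (17.6%, 15.2 to 20.1) and 130 in KOLPS (14.1%, 12 to 16.5), against 66.2% and 66.3% of all WTLPS p65 peaks, with 73 sites in both. Of these, 121 of the 162 and 97 of the 130 lay within 1 kb of a wild-type H3K27ac peak. Besides the Ndufb6 site, the strongest were a site in an intron of Gm31135 nearest to Efnb2, an ephrin ligand (chr8:8142952-8143480, p65 fold 16.7, KO H3K27ac fold 9.99), and a site near Eml4 (chr17:83304555-83304792, p65 fold 15.2, H3K27ac folds of 6.29 in KO and 3.33 in KOLPS). These lay 74 and 328 bp from a wild-type H3K27ac peak.

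STAT5, the factor activated by GM-CSF, was found at 122 sites in WT (13.2%, 11.2 to 15.6) and 95 in KO (10.3%, 8.49 to 12.4), against 27% and 21.4% of all WTLPS p65 peaks. KOLPS p65 was called at 21.3% (15.0 to 29.4) of the sites with WT STAT5 and at 6.37% (4.88 to 8.27) of the others, with median WTLPS folds of 6.47 and 5.93.

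Motif matches under the summits were compared with those at acetylated p65 sites. The NF-kB consensus was matched exactly within 50 bp of the summit at 80 of 923 sites (8.67%, 7.02 to 10.7), against 1.08% of windows 1 kb to either side, 8.75% and 10.2% of the acetylated groups and 11.9% of all WTLPS p65 peaks. The matches lay a median of 18.5 bp from the summit. With 1 mismatch allowed the share was 29.8%. That share was not taken for the windows 1 kb away, so how far it exceeds the background is not known. Of the other motifs, searched on both strands in the same windows, TTGCNNAA of C/EBP factors was at 16.6% (14.3 to 19.1) of the sites and 4.12% of the windows 1 kb away. At sites acetylated before LPS it was at 11.7%, and that share minus the share at sites without H3K27ac was -4.87 points (-7.7 to -2.21). For sites acetylated only with LPS it was -3.02 points (-6.48 to 0.552), an interval that holds 0. TGANTCA of AP-1 was at 10.8% of sites and 3.52% of the windows 1 kb away, GAGGAAGT of PU.1 at 3.79% and 0.596%, TGTGGTT of RUNX factors at 6.28% and 2.60%, GAAANNGAA of IRF factors at 5.53% and 3.79%, and TTCNNNGAA of STAT factors at 5.53% and 3.58%. All 5465 WTLPS p65 summits held these at 13.2% (C/EBP), 11.2% (AP-1), 4.19% (PU.1), 5.73% (RUNX), 5.67% (IRF) and 4.87% (STAT). The IRF string was more frequent at sites acetylated only with LPS, at 8.02%, by 2.49 points (0.0343 to 5.11), and for sites acetylated before LPS the difference was 0.218 points (-1.67 to 1.88). These strings can overlap each other, and a match is a description of letters only.

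**Figure D5:**
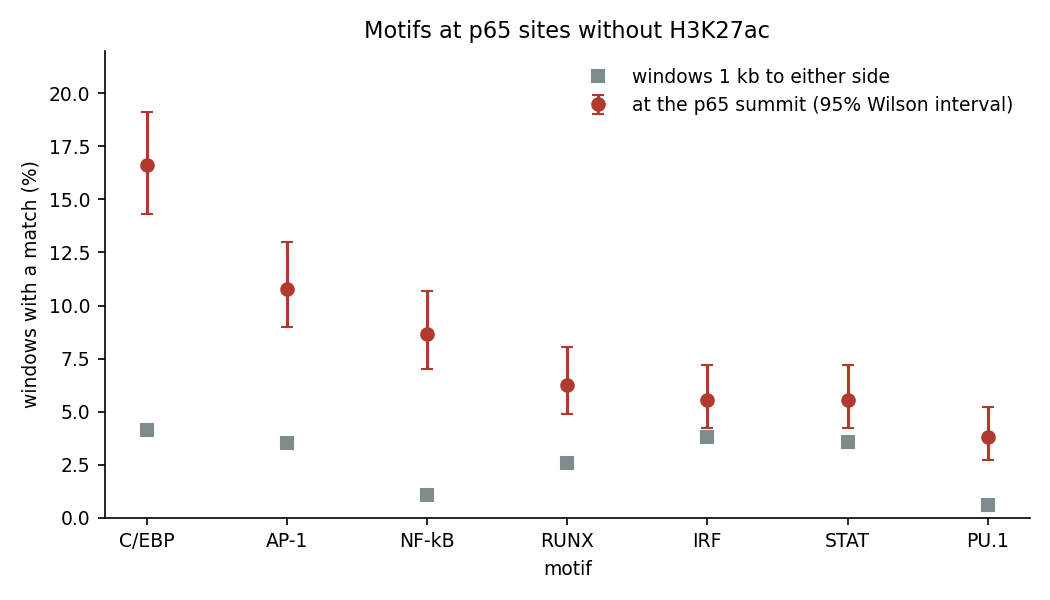
Share of 101-bp windows with an exact motif match (vertical axis, %) at the p65 summits of the 923 sites without H3K27ac, with 95% Wilson intervals, and in windows 1 kb to either side. C/EBP, AP-1 and NF-kB stand at 16.6%, 10.8% and 8.67% at the summit against 4.12%, 3.52% and 1.08% away from it.

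Median GC content over 201 bp was 43.3%, against 43.8% and 45.3% in the acetylated groups. The summit fell in a sequence marked as a repeat at 131 sites (14.2%, 12.1 to 16.6), against 14.0% and 11.5%.

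Genes of the LPS response were near such sites at a modest rate. Of 76 listed genes found in the annotation, 14 (18.4%) had a site within 100 kb of the start site, against 7.27% of all 21938 protein-coding genes, while 70 (92.1%) had a WTLPS p65 peak of any kind that near, against 33.1%. The 14 genes rest on 12 distinct strongest sites. By role they were 4 of 23 cytokines and chemokines, 6 of 16 NF-kB subunits and inhibitors, 1 of 15 members of the TLR4 pathway, 0 of 13 maturation genes such as Cd40 and Ccr7, and 3 of 9 enzymes and effectors. Counted by gene, the strongest site had SMC1 in WTLPS for 10 of the 14 and H3K4me1 in WTLPS for 10. It had p65 in KOLPS for 2 and the NF-kB consensus for 0. Cxcl1, Cxcl2 and Cxcl3 share the same site, which had SMC1 and no H3K4me1, so these are not counts of distinct sites. Over all 923 sites the shares were, in this order, 59.7%, 77.5%, 8.34% and 8.67%.

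For the chemokines, a single site at chr5:90819718-90820109 (p65 fold 16.7, 30 fragments) lay 33.8 kb downstream of the start of Cxcl3, 71.4 kb upstream of Cxcl1 and 84.0 kb upstream of Cxcl2, which encode attractants of neutrophils. SMC1 in WTLPS was its only other peak, and an H3K27ac peak lay 0.280 kb away. It was 1 of 15 WTLPS p65 peaks within 100 kb of Cxcl3, of which 2 had p65 in KOLPS. For Cxcl1 and for Cxcl2 it was 1 of 9, of which 4 had p65 in KOLPS. The site 12.8 kb upstream of Ccl2, an attractant of monocytes (chr11:82022666-82022974, fold 10.2), had peaks in 12 of the 30 lists, with H3K4me1 and SMC1 in all 4 conditions and p65 in KOLPS.

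For the regulators of NF-kB, the sites were weaker. That 71.8 kb downstream of the start of Tnfaip3, which encodes the inhibitor A20, had p65 in KOLPS, with a WTLPS fold of 4.31 and H3K4me1 and SMC1 in all 4 conditions, and was chosen after its values were seen. The sites near Bcl3, Nfkbiz, Tnip1 and Ikbkb had no KOLPS p65 peak. H3K27ac peaks lay 0.041 kb from the Tnfaip3 site and 0, 0.326, 0.055 and 0.445 kb from the Bcl3, Nfkbiz, Tnip1 and Ikbkb sites. WTLPS p65 peaks of any kind within 100 kb of these start sites numbered, in the same order, 16, 6, 7, 10 and 2. The site 4.37 kb upstream of Bcl3, an atypical IkB protein, had a fold of 8.20 and no SMC1 in WTLPS. The site 62.5 kb downstream of the start of Nfkbiz, which encodes the inducible co-activator IkB-zeta, and that 85.4 kb upstream of Tnip1, a partner of A20, had a fold of 7.55 each and SMC1 in WTLPS. The site 38.6 kb upstream of Ikbkb, the kinase that marks the inhibitors for degradation, had a fold of 7.01 and SMC1 in WTLPS but not in WT. In the TLR4 pathway, the site 3.05 kb upstream of Ticam2, an adaptor of TLR4, lay in an intron of Tmed7 with a fold of 5.93 and H3K4me1 in all 4 conditions. An H3K27ac peak lay 0.1 kb from the Ticam2 site. The Ptgs2 site described above was the strongest of the enzymes and effectors.

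H3K4me3 was rare at the 923 sites, at 2.49% and 1.95% in wild-type cells without and with LPS and 2.60% and 1.63% in CTCF-deficient cells. All WTLPS p65 peaks, promoters included, had shares of 21.5%, 18.4%, 20% and 14.2%. Sites acetylated before LPS had 18.4%, 14.6%, 16.6% and 8.90%, and those acetylated only with LPS 7.14%, 4.96%, 5.25% and 3.06%. The differences from the latter had intervals above 0 except in KOLPS, where it was 1.44 points (-0.0413 to 3.13).

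The number of lists with a peak at a site ranged from 1 to 16. At 130 sites (14.1%) p65 in WTLPS was the only peak. Their median fold was 4.85, the NF-kB consensus was at 6 of them (4.62%, 2.13 to 9.70), the summit was in a repeat at 38 (29.2%), and the nearest H3K27ac peak was a median of 332 kb away. At the 400 sites with peaks in 6 to 10 lists these values were 6.47, 8.50%, 8.50% and 0.339 kb. Peaks in 15 or more of the 30 lists were found at 7 sites, which are counted here and not named.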

How the data were processed

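ChIP-seq peak lists of BMDCs were taken as deposited for 30 of 34 samples, and the 4 inputs have no list. Per the labels, reads were aligned to mm10 with BWA 0.7.12, handled with Picard 1.77 and deepTools 3.1.3, and peaks called with MACS2 2.1.2. The study's methods name other versions of these tools and describe peaks called for each replicate. Its reporting summary says that biological replicates were merged and processed together, so it is unclear which of these a list holds. In the deposited lists the authors give a fold enrichment ratio at the summit, −log10 p and −log10 q values, a score and the summit offset. H3K4me1 and H3K27me3 lists are broad peaks, with values averaged over a peak. The names of the p65 lists mark the removal of blacklisted regions, the names inside the H3K4me1 lists give another antibody supplier than the labels, and CTCF and SMC1 lists end at a −log10 p of 7.00 to 7.01. The lists hold no read depth. The study's reporting summary gives reads per sample, which entered no calculation here and are mentioned only for H3K4me1 and p65.

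Overlap means 1 shared bp. Start sites are those of the longest transcript of each of 55413 genes in GENCODE vM21, and positions were read in the order exon, intron, outside genes. Fragment numbers were solved from fold and p. Motifs were searched in the GRCm38 sequence on both strands. Intervals cover counting error only. The 10 strongest sites by fold, the 5 strongest with KOLPS p65, the 3 strongest with H3K27me3 in WT and WTLPS, with WTLPS CTCF or with KO or KOLPS H3K27ac, and the 10 listed genes of highest fold were named, leaving out sites with peaks in at least 15 lists. Of 77 listed genes, Cxcl11 had no protein-coding entry. Members and lists were chosen with earlier results of these data known. Scripts were tested on simulated overlaps, motifs and fragments. Python 3.11.15, pandas 2.3.3, SciPy 1.17.1 and samtools 1.23.1 were used.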

Additional observations from a re-analysis of the deposited data

Results flagged for a closer look

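The difference in SMC1 with LPS at the sites without H3K27ac was large in wild-type cells and small in CTCF-deficient cells. The share of sites with an SMC1 peak was higher in WTLPS than in WT by 20 percentage points (95% interval 17.3 to 22.8). KOLPS minus KO was -1.95 points (-4.27 to 0.373), with lists of 29965 peaks in KO and 17241 in KOLPS. Over all WTLPS p65 peaks these differences were 15.6 and -1.67 points, and at the sites acetylated only with LPS 35.1 and 5.10 points. All these sites were chosen by p65 in WTLPS, and 77 of the 923 had p65 in KOLPS. The 2 differences are therefore not a like comparison. At the 167 sites chosen the same way in CTCF-deficient cells, SMC1 was at 70.1% in KO and 77.2% in KOLPS.

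The H3K4me1 share moved in opposite directions, by 3.58 points from WT to WTLPS and by -18.2 points from KO to KOLPS. Over all WTLPS p65 peaks the values were 1.5 and -15.1 points. With 1 list per condition the difference was not tested for either mark.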

How the results depend on the processing

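Of 76 alternative values, 55 stayed within the 95% interval of the reported value (for the number of sites, within 1.5 times) and 21 moved out of it. A change of sign was possible only for the difference in KOLPS p65 share from LPS-acetylated sites, which stayed positive. Counts and shares cannot change sign. The number of sites was 1606 when 50% of a p65 peak had to be covered before another peak counted as overlapping, 480 without H3K27ac within 1 kb, and 178 with a p65 −log10 q of at least 10. Requiring 50% coverage gave a KOLPS p65 share of 10.7%, a difference from LPS-acetylated sites of 2.26 points, and shares of 84.7% for H3K4me1, 1.12% for H3K27me3 and 72.0% for SMC1 in WTLPS. Without H3K27ac within 1 kb, the KOLPS p65 share was 5.62%, and the WTLPS shares were 62.9% for H3K4me1, 3.75% for H3K27me3, 3.54% for CTCF and 43.5% for SMC1. With the strict p65 threshold the KOLPS p65 share was 20.2%, H3K4me1 86.0%, SMC1 69.7% and the NF-kB consensus 11.2%. With a common −log10 p within each antibody H3K4me1 was 82.2% and SMC1 64.3%. The NF-kB consensus was at 13.9% within 100 bp of the summit and at 29.8% with 1 mismatch. The settings for overlap, H3K27ac distance and p65 threshold change which sites enter by construction, and the cause of the other changes was not tested. No paired analysis was possible because each group had 1 list. At about 10 fragments a summit, a site missing from a list cannot be called unbound.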

Other observations

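The same choice made in CTCF-deficient cells, added after the data were seen, gave 167 sites of 1752 KOLPS p65 peaks: those away from promoters with no KO p65 peak and no H3K27ac peak in KO or KOLPS. Of these, 107 (64.1%, 95% Wilson interval 56.6 to 71.0) had p65 in WTLPS, against 72.0% of all KOLPS p65 peaks. H3K27ac was at 57 (34.1%, 27.4 to 41.6) in WTLPS and 22 (13.2%, 8.86 to 19.1) in WT, against 75.5% and 70.8%. SMC1 was at 70.1% of them in KO and 77.2% in KOLPS, against 84.8% and 89.7%, and H3K4me1 at 86.8% and 71.9%, against 75.5% and 62.3%.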
